A study of Homo sapiens with 2 samples.

Results

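The genes described here are those of the type I interferon response, a list of 53 symbols made up of RNA sensors, transcription factors, receptors with their kinases, and effector genes. A gene was taken where a row of the deposited array table carried its symbol and no other, which found 49 of the 53 among 22411 genes named in this way. Expression was measured on 2 Affymetrix Human Transcriptome Arrays, 1 hybridised with RNA of parental, untreated NCI-N87 cells and 1 with RNA of TDM-1 resistant cells. Cell line and medium were otherwise described alike in the labels. NCI-N87 is an established human gastric carcinoma line with amplified ERBB2, and TDM-1 is the labels' spelling of T-DM1, trastuzumab emtansine, a HER2 antibody carrying a microtubule poison. The labels give neither dose, length of selection nor passage, and they do not say whether the resistant cells are 1 clone or whether the drug was present at harvest. With 1 array in each group no difference could be set against a spread between cultures, so no test was made and every value describes these arrays.

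Type I interferons bind the receptor formed by IFNAR1 and IFNAR2, whose kinases JAK1 and TYK2 phosphorylate STAT proteins. STAT2 with its partners and IRF9 then enters the nucleus and binds the interferon-stimulated response element in the promoters of effector genes. Interferon itself is induced when sensors such as RIG-I, MDA5 and TLR3 meet viral or misplaced RNA and activate IRF3 and IRF7. Tumour cell lines can hold a standing level of the effector genes without infection.

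Paired values are given with the parental one first, as deposited (log2), and a difference is the resistant value less the parental one. A gene was called higher or lower when this difference was at least 1 and the larger of its values reached 5.79, the floor, which is the median of the larger values over all genes. All 49 genes reached the floor on at least 1 array. The rows of 6 epithelial markers, EPCAM, KRT8, KRT18, KRT19, CDH1 and GRB7, lay between 13.18 and 17.26 on the parental array and between 13.75 and 16.99 on the resistant array. All 10 measured leukocyte markers, PTPRC among them, lay under the floor on both arrays (highest 4.75 and 4.87), as did all 7 measured markers of fibroblasts and endothelium (highest 4.88 and 4.79). The 4 hybridisation controls differed by at most 0.138 between the arrays.

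Effector genes, which made up 37 of the 49, held 11 of the 12 called differences, 9 of them lower in resistant cells. Of the 12 signalling genes upstream of them only RIGI was called. With so few signalling genes, 1 call is near the background of 9.12% called lower and sets no contrast with the effectors. Of the 49 genes, 10 were called lower, against 9.12% of the 11206 genes that reached the floor, and 2 were called higher, against a background of 9.58%. That is 20.4% called lower and 4.08% called higher. Among the 2665 genes whose larger value was at least the median of the 49, the background was 13.1% lower and 13.6% higher. That background leaves out genes of lower value, while the shares of the list are over all 49, so the 2 are not like for like. The median difference of the 49 genes was -0.33, beside 0.01 for all genes that reached the floor, and 31 of the 49 differences were negative. The 37 measured effectors had a median of -0.57, with 9 called lower (24.3%), 2 higher (5.41%) and 26 neither. The 5 sensors had a median of -0.33, the 3 measured transcription factors 0.56, and the 4 receptor and kinase genes 0.12. Part of the list was already known to be lower on the resistant array when it was drawn up, so its direction is not independent evidence.

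**Figure D1:**
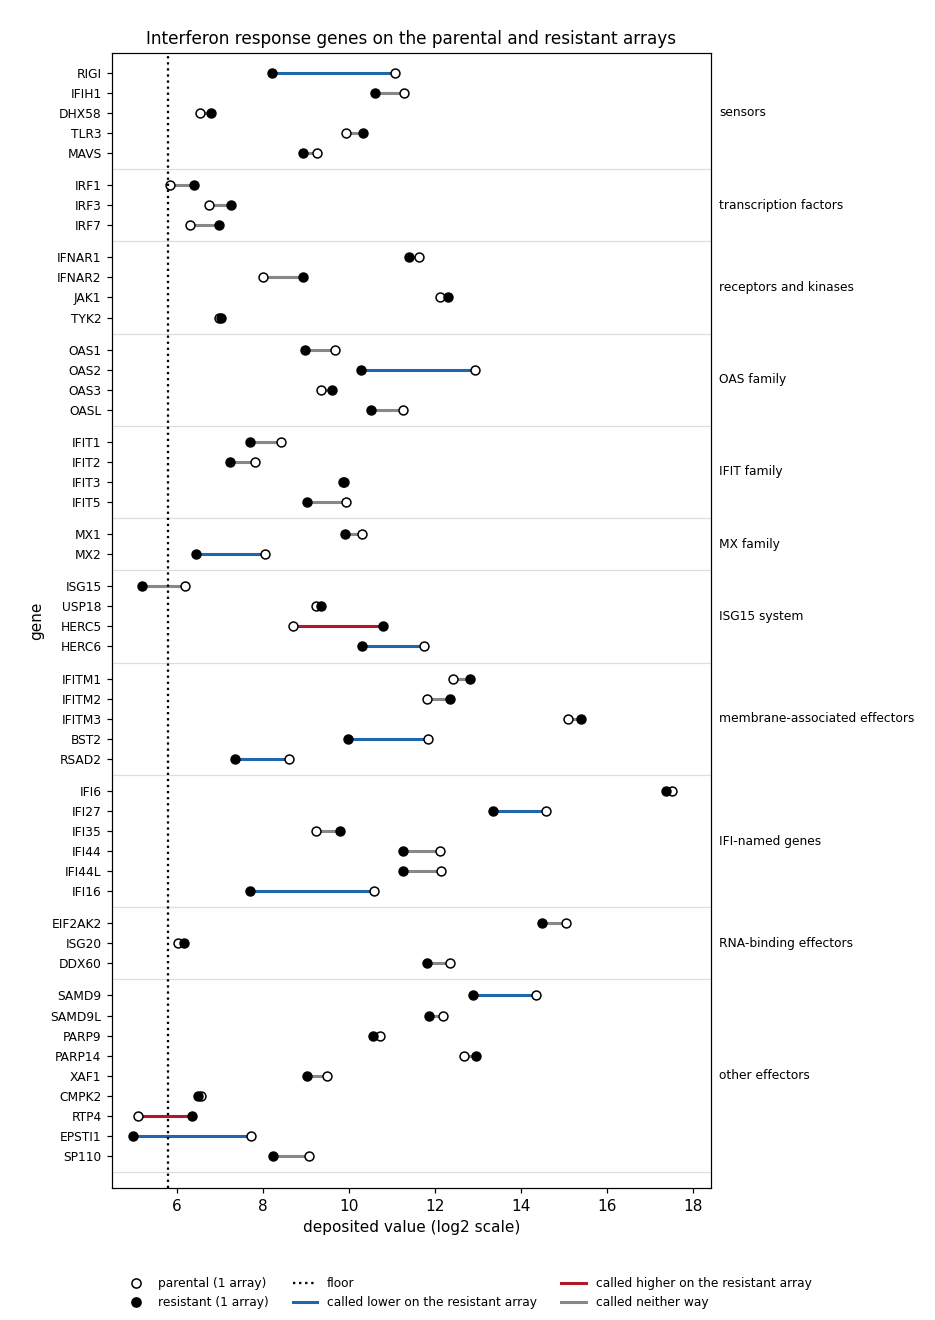
Deposited values (log2 scale, x axis) of the 49 measured genes, grouped by role (y axis), on the parental array (open circles) and the resistant array (filled circles), with the floor of 5.79 dotted. Coloured lines mark the 10 genes called lower and the 2 called higher, HERC5 and RTP4.

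**Figure D2:**
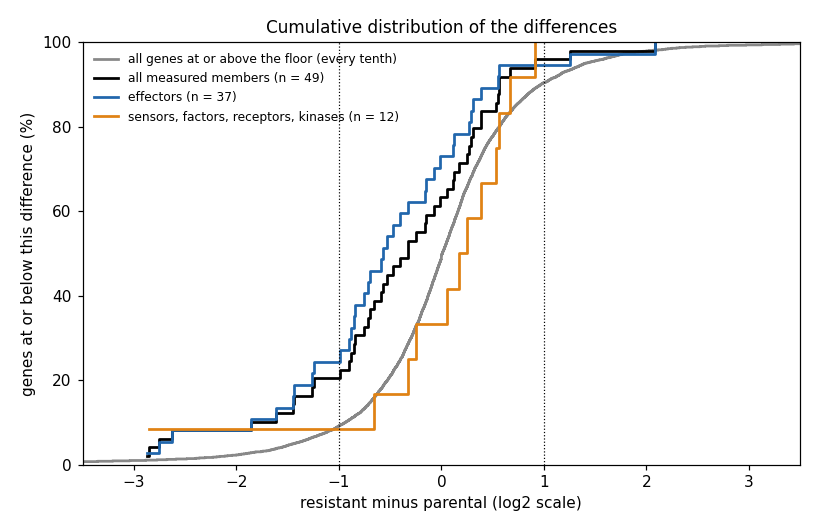
Cumulative percentage of genes (y axis) by difference, resistant less parental (log2 scale, x axis), for all genes that reached the floor, for the 49 genes, for the 37 effectors and for the 12 sensors, factors, receptors and kinases. The effector curve lies left of the curve of all genes over most of its range (medians -0.57 and 0.01), and dotted lines stand at -1 and 1.

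Among the sensors, only RIGI was called. RIGI, the gene of RIG-I, which detects short double-stranded RNA with a triphosphate end, was 11.07 in parental and 8.22 in resistant cells. The difference of -2.85 is a 7.21-fold lower value on the deposited scale. IFIH1, which encodes the long double-stranded RNA sensor MDA5, was 11.27 and 10.61 (-0.66). DHX58, encoding LGP2, a relative of both that modulates their signalling, was 6.55 and 6.79 (0.25). TLR3, the endosomal double-stranded RNA receptor gene, was 9.93 and 10.33 (0.39). MAVS, encoding the mitochondrial adaptor through which RIG-I and MDA5 signal, was 9.26 and 8.94 (-0.33). The RIG-I family thus split, with 1 member far lower on the resistant array and the others within 1 of their parental value. Without RIGI, the median of the sensors was -0.04.

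The measured transcription factor genes all had positive differences, and none was called. IRF1, an activator of many interferon-inducible promoters, was 5.84 in parental and 6.41 in resistant cells (0.56). IRF3, activated downstream of the sensors, was 6.74 and 7.27 (0.53). IRF7, itself interferon-induced and a main driver of interferon-alpha genes, was 6.30 and 6.97 (0.67). All 3 lay less than 2 above the floor on both arrays. STAT2 and IRF9 had no row under a single symbol and are not analysed here as members.

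Receptor and kinase genes were likewise not called. IFNAR1 was 11.64 in parental and 11.39 in resistant cells (-0.24). IFNAR2, the high-affinity receptor chain, was 8.01 and 8.92, and its difference of 0.92 was the nearest to the size threshold from below among genes with positive differences. JAK1 was 12.11 and 12.29 (0.18), and TYK2 was 6.97 and 7.03 (0.06). The receptor chain genes, which lie close together on chromosome 21, differed in opposite directions.

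Interferon genes themselves were under the floor, with 1 exception. The 16 other measured type I interferon genes, IFNB1 and the interferon-alpha genes among them, did not exceed 4.88 on either array, and the 4 measured type II and III genes did not exceed 4.89. IFNE, encoding interferon epsilon, a type I interferon made by epithelia without infection, was 8.44 in parental and 3.74 in resistant cells. The resistant value lay under the floor, which makes IFNE at least 6.26-fold lower. IFNE lies in the interferon gene cluster of chromosome 9, and its nearest protein-coding neighbours that reached the floor had a median difference of -1.03. Of the 24 measured genes in the list of ligands and other receptors, IFNE was the only one called. In whole-culture RNA, fewer expressing cells and less RNA per cell cannot be told apart, for IFNE as for every gene below.

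The OAS genes encode synthetases that make 2'-5' oligoadenylate, the activator of RNase L, and differed among themselves. OAS2 was 12.92 in parental and 10.29 in resistant cells, 6.19-fold lower (-2.63). OAS1 was 9.68 and 8.99 (-0.69), OAS3 was 9.35 and 9.61 (0.27), and OASL, whose product lacks synthetase activity, was 11.26 and 10.50 (-0.76). OAS1, OAS3 and OAS2 follow one another on chromosome 12 with no other protein-coding gene between them, and their differences spanned 2.90.

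IFIT genes encode proteins that bind or help to bind foreign RNA, and none of the 4 was called. IFIT1 was 8.43 and 7.71 (-0.71), IFIT2 was 7.82 and 7.23 (-0.59), and IFIT5 was 9.92 and 9.03 (-0.90). IFIT3 was 9.88 and 9.87 (-0.01). All 4 differences were thus negative, 3 of them between -0.59 and -0.90.

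MX2, encoding a dynamin-like GTPase that blocks nuclear entry of viral genomes, was 8.05 in parental and 6.44 in resistant cells, 3.05-fold lower (-1.61). Its neighbour and paralogue MX1, which acts on influenza and other RNA viruses, was 10.31 and 9.91 (-0.40) and was not called.

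Genes of the ISG15 system, which attaches the ubiquitin-like protein ISG15 to other proteins, differed in both directions. HERC5, encoding the main ISG15 ligase of human cells, was 8.70 in parental and 10.78 in resistant cells, 4.24-fold higher (2.08). HERC6, its neighbour and paralogue, whose counterpart is the ISG15 ligase of mice, was 11.74 and 10.30, 2.71-fold lower (-1.44). The genes lie side by side on chromosome 4, and their differences were 3.52 apart, the widest gap of the 8 families of neighbours examined. ISG15 was 6.18 and 5.19, with the resistant value under the floor, so that it was at least 1.31-fold lower. Its measured difference of -0.99 was not called, and lay between -0.60 (less its neighbours' median) and -1.08 (less the chromosome 1 median) under the alternatives, past the threshold of 1 in the latter and with loess centring (-1.02). USP18, encoding the protease that removes ISG15 and restrains IFNAR2 signalling, was 9.24 and 9.36 (0.12).

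**Figure D3:**
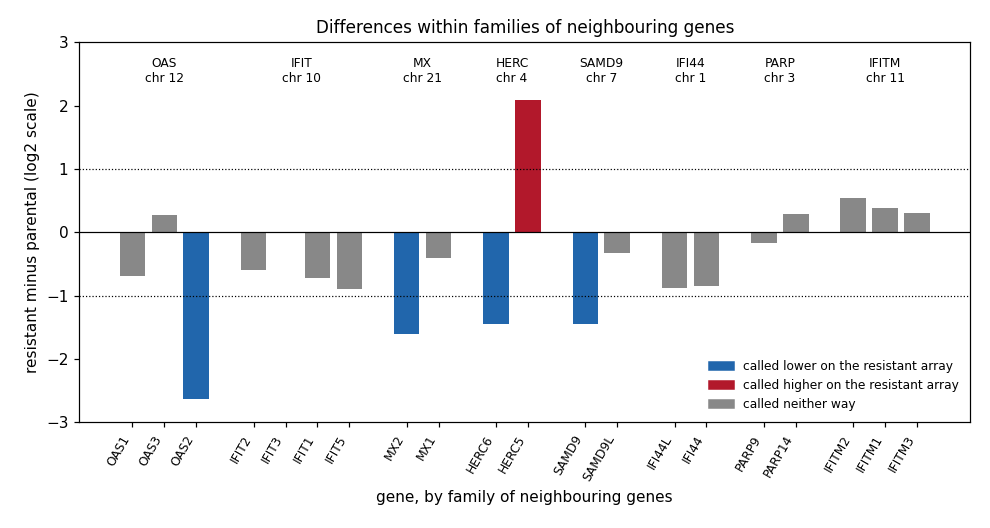
Difference, resistant minus parental (log2 scale, y axis), of each gene in 8 families of neighbouring genes (x axis, with chromosome), with dotted lines at the size threshold of 1. OAS2, MX2, HERC6 and SAMD9 are called lower while a neighbour of the same family is not, HERC5 is called higher, and the bar of IFIT3 (-0.01) is too small to see.

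Promoter sequences show where the element read by the interferon-activated factors stands near some of these genes. RefSeq promoter entries (GRCh38.p14), each spanning 250 bases before to 50 bases after an annotated start, were found for 39 of the 49 genes, OAS2 and MX2 not among them. The letters searched were GAAANNGAAA, the core of the interferon-stimulated response element, on both strands, with overlapping matches counted. Among the 39 genes, 25 held a match (64.1%), beside 4.38% of 27305 genes in the whole table. These genes were listed as interferon response genes, so such an excess could be foreseen and is not a result of these arrays. Of the genes called lower, 5 of 8 with an entry held one, as did both called higher and 18 of 29 called neither way. The 160 bases before the start are shown for both genes called higher and for 4 called lower, RIGI and HERC6 without a match and BST2 and EPSTI1 with one, each written 5′ to 3′ on the gene's strand with matches in capitals.
HERC5: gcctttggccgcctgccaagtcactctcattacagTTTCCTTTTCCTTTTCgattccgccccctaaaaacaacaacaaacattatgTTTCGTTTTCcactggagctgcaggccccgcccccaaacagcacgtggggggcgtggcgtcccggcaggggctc
HERC6: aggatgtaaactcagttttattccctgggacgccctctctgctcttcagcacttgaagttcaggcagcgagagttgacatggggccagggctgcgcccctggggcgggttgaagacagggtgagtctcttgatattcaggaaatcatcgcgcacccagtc
RTP4: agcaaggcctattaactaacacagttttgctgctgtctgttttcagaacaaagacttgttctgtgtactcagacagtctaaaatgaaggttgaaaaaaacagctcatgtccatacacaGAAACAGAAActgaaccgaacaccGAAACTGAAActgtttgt
RIGI: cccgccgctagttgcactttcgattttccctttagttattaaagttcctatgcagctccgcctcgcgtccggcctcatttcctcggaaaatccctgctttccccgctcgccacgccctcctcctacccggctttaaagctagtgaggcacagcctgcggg
BST2: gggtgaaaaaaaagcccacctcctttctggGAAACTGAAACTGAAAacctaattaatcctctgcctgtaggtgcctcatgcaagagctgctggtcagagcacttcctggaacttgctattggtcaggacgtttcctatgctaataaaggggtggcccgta
EPSTI1: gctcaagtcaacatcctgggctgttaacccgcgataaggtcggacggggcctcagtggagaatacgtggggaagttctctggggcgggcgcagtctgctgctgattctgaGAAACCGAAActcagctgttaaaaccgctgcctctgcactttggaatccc
These windows are chr4:88456959-88457118 (plus strand) for HERC5, chr4:88378692-88378851 (plus) for HERC6, chr3:187368225-187368384 (plus) for RTP4, chr9:32526197-32526356 (minus) for RIGI, chr19:17405631-17405790 (minus) for BST2 and chr13:42992242-42992401 (minus) for EPSTI1. HERC5 held 3 matches, of which the first pair overlap, and its neighbour HERC6 held none. BST2 held 2 overlapping matches, RTP4 held 2 and EPSTI1 1. A match is a run of letters and not a measured binding site, and the absence of a match says only that these letters are not in the window. The median difference of the 25 genes with a match was -0.53 (range -2.75 to 2.08), and that of the 14 without was -0.33 (range -2.87 to 0.56). These groups differ in role. A match was found for 23 of 31 effectors (74.2%) and for 2 of 8 sensors, factors, receptors and kinases (25%). The medians therefore also compare roles, and a link between the element and the difference was not tested. The gamma-activated site TTCNNNGAA, bound by STAT dimers, was found for 12 of the 39 genes (30.8%), beside 9.38% of all genes, and it overlaps some of the response element matches. That excess, too, could be foreseen from the choice of genes.

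**Figure D4:**
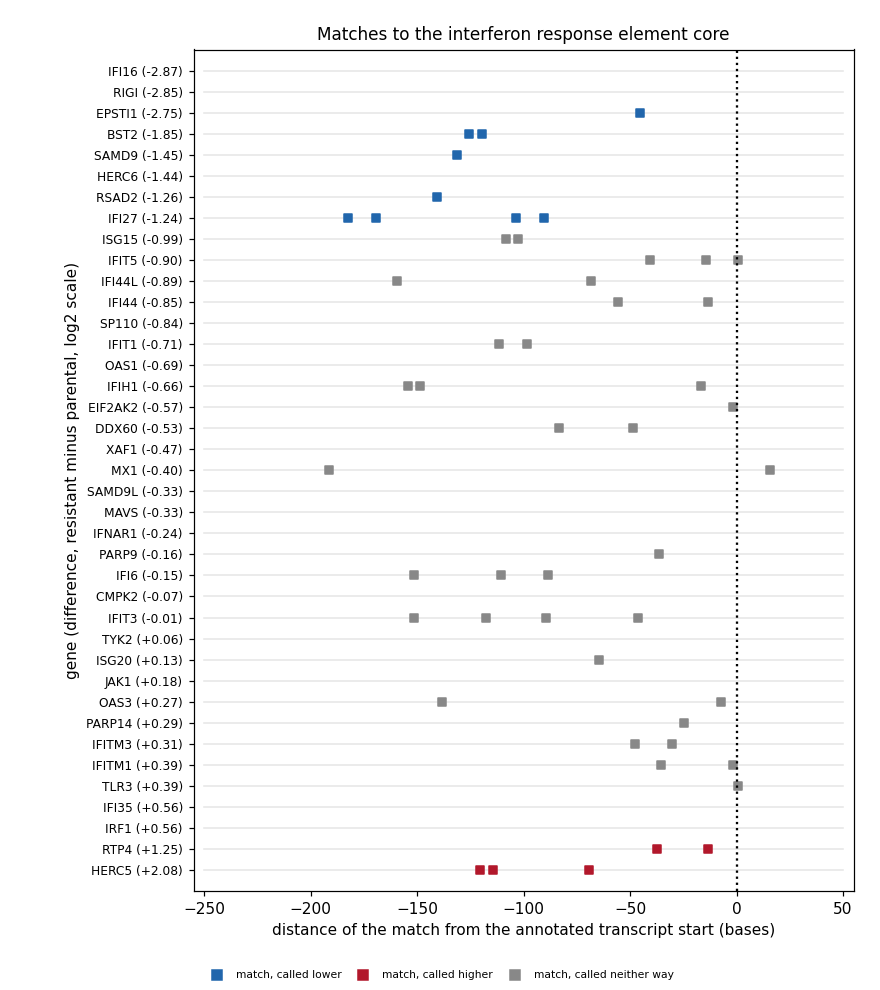
Position of each match to the response element core relative to the annotated transcript start (bases, x axis) for the 39 genes with a promoter entry, ordered by difference from lowest to highest (y axis, difference in brackets). IFI16 and RIGI, the lowest, have no match, but 5 of the 8 genes called lower have one, EPSTI1 (1) and BST2 (2) among them. HERC5 and RTP4, at the bottom, have 3 and 2, while IRF1 and IFI35, next above them, have none. For genes with several annotated starts, matches of all entries are drawn.

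Among the membrane-associated effectors 2 of 5 were called, both lower. BST2, encoding tetherin, which holds budding virus at the cell surface, was 11.84 in parental and 9.98 in resistant cells, 3.62-fold lower (-1.85). RSAD2, encoding viperin, an enzyme that makes a chain-terminating nucleotide, was 8.62 and 7.35, 2.40-fold lower (-1.26). CMPK2, which neighbours RSAD2 and encodes a mitochondrial nucleotide kinase, was 6.57 and 6.50 (-0.07). The IFITM genes, whose products hinder fusion of virus with endosomal membranes, all had positive differences and were not called. IFITM1 was 12.42 and 12.80 (0.39), IFITM2 was 11.80 and 12.35 (0.55), and IFITM3 was 15.08 and 15.39 (0.31). Less the medians of their neighbours, which include one another, these became -0.02, 0.20 and -0.12, so the direction turned for IFITM1 and IFITM3. These 3 paralogues are similar in sequence, so their rows are uncertain as measures of single genes.

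Of the genes named IFI, 2 of 6 were called lower. IFI16, encoding a nuclear DNA sensor, was 10.57 in parental and 7.70 in resistant cells. Its difference of -2.87, a 7.31-fold lower value, was the lowest of the 49 genes. IFI27 was 14.59 and 13.35, 2.36-fold lower (-1.24). IFI44 was 12.11 and 11.26 (-0.85) and its neighbour IFI44L was 12.14 and 11.25 (-0.89), so this pair of paralogues had nearly equal differences. IFI35 was 9.23 and 9.79 (0.56). IFI6, encoding a small membrane protein, was 17.50 and 17.36 (-0.15). IFI6 was the only one of the 49 genes above 16, the log2 ceiling of a 16-bit scanner, which shows that the deposited values are not plain log2 brightness.

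RNA-binding effectors were not called. EIF2AK2, encoding the kinase PKR, which halts translation on binding double-stranded RNA, was 15.05 and 14.48 (-0.57). DDX60, a helicase gene, was 12.35 and 11.82 (-0.53), and ISG20, an exonuclease gene, was 6.03 and 6.16 (0.13).

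The remaining effectors held 2 genes called lower and 1 called higher. SAMD9, encoding an antiviral factor that restricts poxviruses, was 14.34 in parental and 12.89 in resistant cells, 2.74-fold lower (-1.45). Its neighbour and paralogue SAMD9L was 12.18 and 11.85 (-0.33). EPSTI1, named for its induction by epithelial-stromal contact, was 7.73 and 4.98. The resistant value lay under the floor, which makes EPSTI1 at least 3.83-fold lower. RTP4, encoding a chaperone of G protein-coupled receptors that is interferon-induced, was 5.10 and 6.35. The parental value lay under the floor, so that RTP4 was at least 1.48-fold higher, less than the size threshold applied to the measured values. PARP9 and PARP14, ADP-ribosyltransferase genes, differed by -0.16 and 0.29. XAF1, encoding an antagonist of the apoptosis inhibitor XIAP, was 9.50 and 9.02 (-0.47). SP110, a nuclear body gene, was 9.07 and 8.23 (-0.84), and the 6 genes of this group that were called neither way, SP110 among them, lay between -0.84 and 0.29. With the floor at the 75th percentile, MX2, EPSTI1 and RTP4 were no longer called.

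Called genes were set beside their chromosomal neighbours. For each of the 49 genes, the nearest protein-coding genes that reached the floor, up to 5 on each side in the order of the GRCh38.p14 gene table, were taken as neighbours, other interferon response genes included. The neighbours' median lay between -1.33 and 0.27 for the 10 genes called lower, and the 9 of them measured above the floor on both arrays stayed at least 1 lower after this median was subtracted (-2.81 to -1.21). EPSTI1 had the lowest neighbours' median, -1.33. Its measured difference less that median was -1.42, but its resistant value was under the floor, and the bound against the floor (-1.94) less that median was -0.61, short of the threshold. EPSTI1 lies on chromosome 13, where 164 protein-coding genes reaching the floor had a median of -1.09. RIGI, on chromosome 9, had neighbours with a median of -0.68 and a difference of -2.17 less that median. SAMD9 had neighbours with a median of 0.27 and a difference of -1.72 less that median. It lies on chromosome 7, whose 450 protein-coding genes reaching the floor had a positive median of 0.62. Less the chromosome median, the difference of SAMD9 was -2.07. HERC5 (2.36 less its neighbours' median of -0.28) stayed above the threshold, whereas RTP4 (0.77 less its neighbours' 0.48) did not. Whether copy number differs between the lines was not tested.

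**Figure D5:**
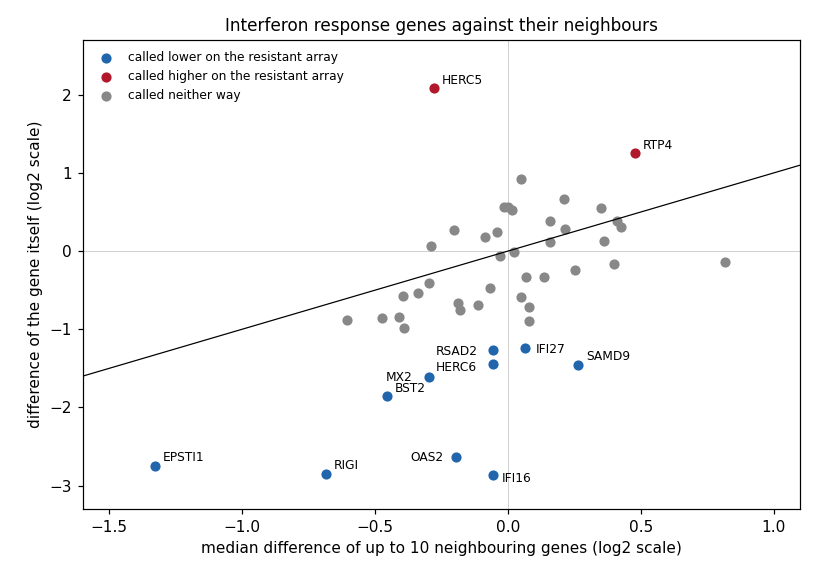
Difference of each of the 49 genes (y axis) against the median difference of up to 10 neighbouring genes (x axis), both resistant less parental (log2), with the line of equality. The 10 genes called lower lie between -2.87 and -1.24 while their neighbours' medians lie between -1.33 and 0.27.

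Genes of the same pathway outside the list gave a mixed picture. Only genes that reach the floor can be called. The backgrounds were 9.12% lower and 9.58% higher among genes that reached it, and 4.56% and 4.79% among all 22411 genes. Shares and medians of each list below are over all its measured genes, those under the floor included. Of 30 measured regulators, 23 reached the floor, 1 was called higher (3.33%), 1 lower (3.33%) and 28 neither, with a median of 0.02. MYD88, the adaptor gene of most Toll-like receptors, was 8.70 in parental and 10.29 in resistant cells (1.59). STAT3, whose product answers to interleukin-6 family cytokines, was 11.12 and 10.07 (-1.04). Of 47 other interferon-stimulated genes, 42 reached the floor, 8 were called lower (17.0%), 5 higher (10.6%) and 34 neither, with a median of 0.10. The lower ones included SLFN5 (13.41 and 11.52), a schlafen family gene, TNFSF10 (9.16 and 7.56), encoding the death ligand TRAIL, and SP100 (11.95 and 10.47), another nuclear body gene. SLFN11, a schlafen gene tied to the response to DNA damage, was 6.60 and 4.69, at least 1.75-fold lower against the floor. DDX60L (-1.41), TMEM140 (-1.11), SLFN12 (-1.10) and SHFL (-1.01), named after their values were seen, were the remaining lower ones. The higher ones, named after their values were seen, were LAP3 (1.44), PARP12 (1.17), IFI30 (1.17), APOL1 (1.07) and RNF213 (1.06). A further list held 15 guanylate-binding protein, chemokine and other genes that interferon-gamma induces strongly. Of these, 4 were called lower (26.7%), 1 higher (6.67%) and 10 neither, and 7 of the 15 reached the floor. GBP4 (8.30 and 5.65) was at least 5.69-fold lower, GBP2 was 8.15 and 5.90 (-2.25), WARS1, a tryptophan tRNA synthetase gene, was 12.26 and 10.64 (-1.62), and GBP1 was 9.07 and 7.52 (-1.55). The gene called higher, named after its value was seen, was ICAM1 (1.31), encoding an adhesion molecule. CXCL9, CXCL10 and CXCL11, chemokine genes, lay under the floor on both arrays.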

How the data were processed

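RNA of parental and of resistant cells was hybridised to 1 array each. The sample titles speak of cell lines in the plural and do not give the number of cultures behind each RNA. Log2 values of 70523 rows make up the table the authors deposited. They were made with Affymetrix Expression Console, per the submitters' processing notes; the sources used here do not name its version, algorithm, annotation or build, nor the log base, which was taken as 2. Column medians were 4.76 on both arrays.

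Rows were named through the platform annotation (23781 with 1 symbol, 1543 with several, 45199 not listed) and updated by gene identifier, symbol or synonym through the NCBI gene table for GRCh38.p14. Where a gene had several rows, that with the highest mean was used; each of the 49 genes had 1 row. Every measured gene of the list could be named in the text, with full values for signalling genes and called effectors. Of each companion list, up to 4 called genes with the largest difference were to be named. The further called genes of those lists were added after their values were seen. The members, roles, companion lists and thresholds were chosen with earlier results of these data known. No test is possible with a single array in each group; the number of arrays limits the precision. Python 3.11.15, pandas 2.3.3 and statsmodels 0.14.6 were used. Alternatives were median, quantile and loess centring (span 0.3), averaging the rows of a gene, other floors and thresholds, and subtraction of chromosome medians; subtraction of neighbours' medians and leaving out chromosomes 6, 7 and 13 were added after the data were seen.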

Additional observations from a re-analysis of the deposited data

How the results depend on the processing

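Of the 12 called genes, 11 kept their call by measured values under the 5 alternatives that shift the differences (median, quantile and loess centring, and subtraction of chromosome or neighbours' medians); the exception was RTP4 less its neighbours' median. Leaving out chromosomes 6, 7 and 13 removes SAMD9 and EPSTI1 and left 8 genes called lower. No called difference changed sign under any alternative run. With a threshold of 1.5-fold, 20 genes were called lower and 4 higher (effectors 18 lower), and with 4-fold, 4 lower and 1 higher (effectors 3 lower and 1 higher). With the floor at the 75th percentile, 1 gene was called higher, an effector. Less the median of neighbours, 1 gene was called higher, an effector, and the median was -0.43 for effectors and 0.31 for receptors and kinases. The median of the sensors was -0.041 without RIGI. Other values of the medians moved by no more than 0.138, the largest difference of a hybridisation control, a limit that covers hybridisation only and not the spread between cultures. No paired analysis was possible because each group holds 1 array. Values near the floor, such as those of IRF1, ISG15, ISG20 and RTP4, are limited by signal over background, and the table carries no detection calls.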

Other observations

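Rows annotated to a listed gene together with another gene were not assigned to either. The row of IRF9 and RNF31 was 7.60 in parental and 7.46 in resistant cells, a difference of -0.14. IRF9 encodes the DNA-binding partner of the STAT proteins in the interferon-activated complex, and RNF31 a subunit of a ubiquitin ligase. The row of UBA7, the gene of the ISG15-activating enzyme, and MIR5193 was 5.91 and 6.66 (0.75). The row of OR56B1, an olfactory receptor gene, and TRIM22, an interferon-induced antiviral gene, was 5.45 and 4.58, under the floor of 5.79 on both arrays.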
